A study of Homo sapiens with 3 samples.

Results

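The coiled-coil-helix gene CHCHD10, the uncoupling protein gene UCP2 and 7 genes of mitochondrial protein quality control (CHCHD2, DNLZ, HSPA9, HSPD1, HSPE1, LONP1 and CLPP) were followed across 3 RNA-seq libraries. They were found by gene name among the 58243 genes of each library's table, and all 9 were present and averaged 50 reads or more. CHCHD10 and DNLZ were chosen by their lower read counts at day 5 than at day 3, and the others were set beside them with their values known, so every ratio of the 9 genes is a description and none was tested. The cells are labelled as LoVo, an epithelial line of colorectal carcinoma, and carry an inducible (Tet-On) short hairpin RNA against HRD1. SYVN1 encodes HRD1, which tags misfolded proteins of the endoplasmic reticulum with ubiquitin for degradation. All 3 cultures carried the hairpin, and the groups were cells given doxycycline (1 µg/ml) for 0, 3 or 5 days, to ask how the stress of HRD1 loss alters gene expression. Time on doxycycline and knockdown cannot be told apart, because no library is from doxycycline-treated cells without the hairpin. Each time had 1 library, so a ratio compares libraries and not conditions, and whether the 3 cultures were separate is not stated. The labels do not say whether the line is 1 clone.

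Mitochondria import most of their proteins unfolded through the TOM and TIM complexes. In the matrix, the HSP70 protein mortalin (HSPA9) pulls them in, and the HSP60 and HSP10 proteins (HSPD1 and HSPE1) form a chamber in which they fold. The proteases LONP1 and CLPP degrade those that stay misfolded or oxidised. CHCHD10 and CHCHD2 are paralogs of the intermembrane space, held in shape by disulfide bonds, and variants of each are known from neurodegenerative disease. DNLZ (also called HEP1) keeps mortalin soluble. UCP2 is a carrier of the inner membrane that is known for mild uncoupling and for export of metabolites.

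Promoter windows (RefSeq, GRCh38.p14, from 250 bases before to 50 after a start site) were given for 7 of the 9 genes, not for DNLZ and CLPP. They are shown for CHCHD10 and UCP2, which had the lower ratios of the 9 genes at day 5 together with DNLZ, and for HSPE1 and HSPD1, which are divergently transcribed from 1 stretch of DNA but differed in their ratios. In the HSPE1 window capitals mark the 204 bases shared with the first HSPD1 window (chr2:197500225-197500428). In the second HSPD1 window they mark a match to the core of a heat shock element.
CHCHD10, chr22:23767923-23768222, minus strand: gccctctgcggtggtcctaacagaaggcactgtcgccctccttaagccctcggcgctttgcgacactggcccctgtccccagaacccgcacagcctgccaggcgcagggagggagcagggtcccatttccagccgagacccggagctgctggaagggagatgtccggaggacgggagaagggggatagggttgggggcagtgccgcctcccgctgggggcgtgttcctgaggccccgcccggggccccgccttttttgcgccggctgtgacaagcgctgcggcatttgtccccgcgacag
UCP2, chr11:73983153-73983452, minus strand: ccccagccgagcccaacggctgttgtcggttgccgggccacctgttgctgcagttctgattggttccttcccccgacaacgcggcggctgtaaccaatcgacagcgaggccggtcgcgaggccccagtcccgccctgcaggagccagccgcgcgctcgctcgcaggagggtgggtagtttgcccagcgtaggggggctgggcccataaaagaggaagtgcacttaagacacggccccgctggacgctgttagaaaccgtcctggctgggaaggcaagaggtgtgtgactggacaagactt
HSPE1, chr2:197500129-197500428, plus strand: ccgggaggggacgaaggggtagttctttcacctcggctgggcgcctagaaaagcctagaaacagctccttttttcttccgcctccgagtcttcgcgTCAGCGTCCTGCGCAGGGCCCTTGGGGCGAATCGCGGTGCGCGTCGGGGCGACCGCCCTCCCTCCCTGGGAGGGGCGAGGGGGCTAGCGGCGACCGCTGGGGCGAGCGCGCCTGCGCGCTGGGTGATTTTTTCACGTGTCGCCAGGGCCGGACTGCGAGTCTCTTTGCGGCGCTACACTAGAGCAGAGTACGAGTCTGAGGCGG
HSPD1, chr2:197499791-197500090, minus strand: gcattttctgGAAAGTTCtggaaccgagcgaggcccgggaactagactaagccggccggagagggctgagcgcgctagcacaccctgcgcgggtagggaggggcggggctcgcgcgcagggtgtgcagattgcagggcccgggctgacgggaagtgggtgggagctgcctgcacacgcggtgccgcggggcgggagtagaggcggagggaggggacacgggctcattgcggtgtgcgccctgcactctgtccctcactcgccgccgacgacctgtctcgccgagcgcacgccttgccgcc
The 10 windows of the 7 genes were searched on both strands for 5 motifs. The heat shock element core GAANNTTC was found in that HSPD1 window only, against 6.77% of all 35116 windows of 300 bases. The NRF1 motif GCGCANGCG (7.52% of all windows) was found in the shared stretch, and so in both the HSPE1 and the first HSPD1 window, in the second UCP2 window (not shown) and, as 2 overlapping matches, in the second LONP1 window. The E-box CACGTG (7.26%) was found in HSPA9, in the shared stretch and at 2 positions of the first LONP1 window. The composite CHOP and ATF4 motif TGATGNAA (3.62%) and the CRE TGACGTCA (1.85%) were in none of the 10. No motif of the 5 was in the windows of CHCHD10 or CHCHD2, nor in the UCP2 window shown. No match overlapped a match to another motif. The CHCHD10 window was 69.0% G and C and the UCP2 window shown was 64.7%, against a median of 58.7% over all windows.

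Reads assigned to genes totalled 21308785 at day 0, 22068686 at day 3 and 25754188 at day 5. SYVN1, the targeted gene, had 1212, 650 and 709 reads, or 56.1, 30.4 and 27.0 normalised CPM, so its counts went in the direction of the labels. The label of a colon epithelial cell was met in part: KRT8, KRT18 and KRT19 were at 137 to 738 TPM, but EPCAM and CDH1 stayed under 1 TPM, KRT20 at 0 to 0.447 TPM and CDX2 at 0 reads in every library. Of 8 mesenchymal markers, VIM was at 3588 to 4130 TPM and made up most of their sum (4082, 4192 and 3643 TPM). FN1 and SPARC were at 23.7 to 32.0 TPM, COL1A1 and PDGFRB at 1.23 to 4.19 TPM, and COL1A2, COL3A1 and THY1 under 1 TPM. The day 5 library stands apart, since it held more reads of marker genes of hepatocytes, enterocytes and blood cells, whose source was not tested. Leukocyte marker reads, at 6, 42 and 95 in turn, were higher at day 3 already. Of 13 hepatocyte markers, 8 were at 1 TPM or more at day 5 against 1 (SERPINA1) at day 0 and day 3. The summed level was 799, 666 and 731 TPM, of which SERPINA1 alone made up 799, 664 and 693 TPM. ALB had 0, 0 and 114 reads. Summed levels at day 0, day 3 and day 5 were 0, 0.115 and 6.95 TPM for 8 enterocyte markers, 0.0999, 1.75 and 11.4 TPM for 7 red blood cell markers, 0.569, 2.45 and 6.4 TPM for 7 leukocyte markers and 3.08, 3.23 and 2.93 TPM for 9 muscle markers. ALB and 7 of the 8 enterocyte markers were at 0 in the other libraries. The part of these reads in any ratio with day 5 was not tested. In bulk RNA, fewer cells that express a gene and less RNA per cell cannot be told apart.

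The 9 genes spanned a wide range of abundance. Per length, in the authors' TPM, the order at day 0 was CHCHD2 (1168), HSPD1 (636), HSPA9 (480.1), LONP1 (329), HSPE1 (215), CLPP (201), CHCHD10 (80.1), UCP2 (60.4) and DNLZ (24.8). The order was the same at day 3. At day 5 HSPE1 (334 TPM) stood above LONP1 (314 TPM), and UCP2 (33.3 TPM) stood above CHCHD10 (31.0 TPM). HSPE1 and CLPP at day 0, and UCP2 and CHCHD10 at day 5, lay close together, and with no replicates their order is uncertain. The genes at least 1.5-fold lower at day 5 were the 3 of lowest abundance among the 9.

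**Figure D1:**
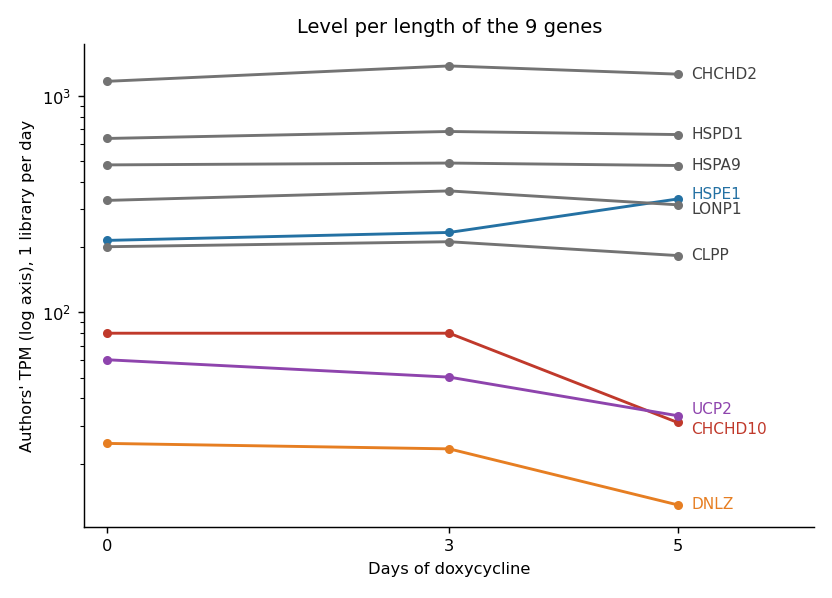
Authors' TPM (vertical axis, logarithmic) of the 9 genes against days of doxycycline (horizontal axis), 1 library per point and no error bars because there are no replicates. CHCHD10, UCP2 and DNLZ, the 3 lowest curves, go down to 31.0, 33.3 and 12.9 TPM at day 5, while HSPE1 goes up to 334 TPM.

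From day 3 to day 5, 8 of the 9 genes had a negative log2 ratio, CHCHD10, DNLZ and UCP2 past 1.5-fold and the other 5 short of it, and HSPE1 was higher by less than 1.5-fold. CHCHD10 (ENSG00000250479, chromosome 22, positions 23765834 to 23768443) lies on the minus strand. It had 575, 613 and 284 reads at days 0, 3 and 5 in turn, or 26.6, 28.7 and 10.8 normalised CPM. The first 2 libraries were alike and the third was low. At day 5 it stood at 37.7% of day 3, a log2 ratio of -1.41 [-1.62 to -1.20], where brackets give the 95% interval for counting error, and at 40.7% of day 0, a log2 ratio of -1.30 [-1.51 to -1.09]. Among 7423 protein-coding genes that averaged at least 200 reads, at least 90% of them uniquely placed, CHCHD10 had the lowest ratio in both comparisons with day 5, which share that library. Without the condition on unique reads its rank from the lowest was 3 of 9787 for day 5 over day 3 and 2 for day 5 over day 0, and among all 12593 genes that averaged 50 reads it was 12 and 17. All of its reads were uniquely placed.

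DNLZ (ENSG00000213221, chromosome 9, positions 136359480 to 136363789, on the minus strand) had 389, 399 and 247 reads, or 18.0, 18.7 and 9.41 normalised CPM. The third library was again the low one. Its day 5 level was 50.4% of day 3, a log2 ratio of -0.99 [-1.22 to -0.76], and 52.3% of day 0. This value rests on which reads are counted. Uniquely placed reads numbered 290, 287 and 120, and the log2 ratio of day 5 over day 3 from unique reads, scaled by their own totals, was -1.53. Reads that were not uniquely placed numbered 99, 112 and 127, with a log2 ratio of -0.12 [-0.49 to 0.26], and made up the larger part of DNLZ reads at day 5, when 48.6% were unique. DNLZ overlaps CARD9 by 1887 bases on the same strand and GPSM1 by 126 bases on the other strand, and CARD9 had 64, 55 and 71 reads.

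UCP2 (ENSG00000175567, chromosome 11, positions 73974667 to 73983307, on the minus strand) had 978, 883 and 669 reads, or 45.3, 41.3 and 25.5 normalised CPM. In normalised CPM it was the only gene of the 9 below its day 0 level at day 3, with a log2 ratio of -0.13 [-0.26 to 0.00]. In the authors' TPM, DNLZ was lower at day 3 too, at 23.4 against 24.8. At day 5 the level of UCP2 was 56.3% of day 0, a log2 ratio of -0.83 [-0.97 to -0.69]. It was 61.7% of day 3, a log2 ratio of -0.70 [-0.85 to -0.55]. All of its reads were uniquely placed.

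HSPE1, the HSP10 lid of the folding chamber (ENSG00000115541, chromosome 2, positions 197499994 to 197503457, on the plus strand), had 2102, 2479 and 4006 reads, or 97.3, 116 and 153 normalised CPM. Each library was above the one before. The day 5 level was 1.57-fold that of day 0 [1.49 to 1.65] and 1.31-fold that of day 3 [1.25 to 1.38]. HSPD1, the HSP60 barrel (ENSG00000144381, chromosome 2, positions 197486581 to 197516737, on the minus strand), had 13693, 15879 and 17527 reads, or 634, 744 and 668 normalised CPM. Its log2 ratio was 0.23 [0.20 to 0.26] at day 3 and 0.08 [0.04 to 0.11] at day 5 over day 0, and -0.16 [-0.19 to -0.12] at day 5 over day 3. In TPM, HSPE1 stood at 33.8%, 34.1% and 50.4% of HSPD1. The pair that shares the promoter stretch shown above thus had the same proportion in the first 2 libraries and another in the third. HSPE1 reads that were not uniquely placed numbered 217, 253 and 529, and unique reads alone gave a log2 ratio of 0.35 [0.27 to 0.42] for day 5 over day 3 on the same scale, against 0.39 [0.32 to 0.47] from all reads. The whole annotated span of HSPE1 (3464 bases) lies within that of HSPD1 on the other strand, and the counting is not stated to use strand, so reads of the pair may be shared. The readthrough gene HSPE1-MOB4, which overlaps HSPE1, had 39, 51 and 81 reads, of which 2, 3 and 2 were unique.

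The remaining genes stayed within 1.5-fold. CHCHD2, the paralog of CHCHD10 (ENSG00000106153, chromosome 7, positions 56101569 to 56106576, on the minus strand), had 6538, 8346 and 8673 reads, or 303, 391 and 330 normalised CPM. Its day 3 library was the highest, with a log2 ratio of 0.37 [0.32 to 0.42] over day 0, and day 5 over day 3 was -0.24 [-0.29 to -0.20]. In TPM, CHCHD10 stood at 6.86%, 5.82% and 2.45% of CHCHD2. HSPA9, the matrix HSP70 (ENSG00000113013, chromosome 5, positions 138554882 to 138575444, on the minus strand), had 11351, 12528 and 13838 reads, or 525, 587 and 527 normalised CPM. Its day 3 log2 ratio was 0.16 [0.12 to 0.20], and day 5 was at the day 0 level, 0.01 [-0.03 to 0.04]. In TPM, DNLZ, which keeps HSPA9 soluble, stood at 5.17%, 4.78% and 2.71% of HSPA9.

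LONP1, the matrix protease of oxidised proteins (ENSG00000196365, chromosome 19, positions 5691834 to 5720572, on the minus strand), had 8555, 10165 and 9985 reads, or 396, 476 and 380.4 normalised CPM. CLPP, the proteolytic subunit of the ClpXP protease (ENSG00000125656, chromosome 19, positions 6361452 to 6368908, plus strand), had 2275, 2607 and 2539 reads, or 105, 122 and 96.7 normalised CPM. Both were highest at day 3. Their log2 ratios were 0.27 [0.22 to 0.31] and 0.21 [0.13 to 0.30] for day 3 over day 0, and -0.32 [-0.36 to -0.28] and -0.34 [-0.42 to -0.26] for day 5 over day 3. At day 5 both were within 10% of day 0.

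By size, 0 of the 9 genes were at least 1.5-fold higher or lower at day 3 over day 0, where 1.29% and 2.53% of 12593 genes were. At day 5 over day 0, 3 were lower (CHCHD10, DNLZ and UCP2) and 1 was higher (HSPE1), where 1.28% of all genes were lower and 1.76% higher. At day 5 over day 3 the same 3 were lower and 0 were higher, where 0.961% and 2.29% of all genes were. The genes were chosen with these ratios known, so the counts are set beside those shares and nothing is read from them.

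**Figure D2:**
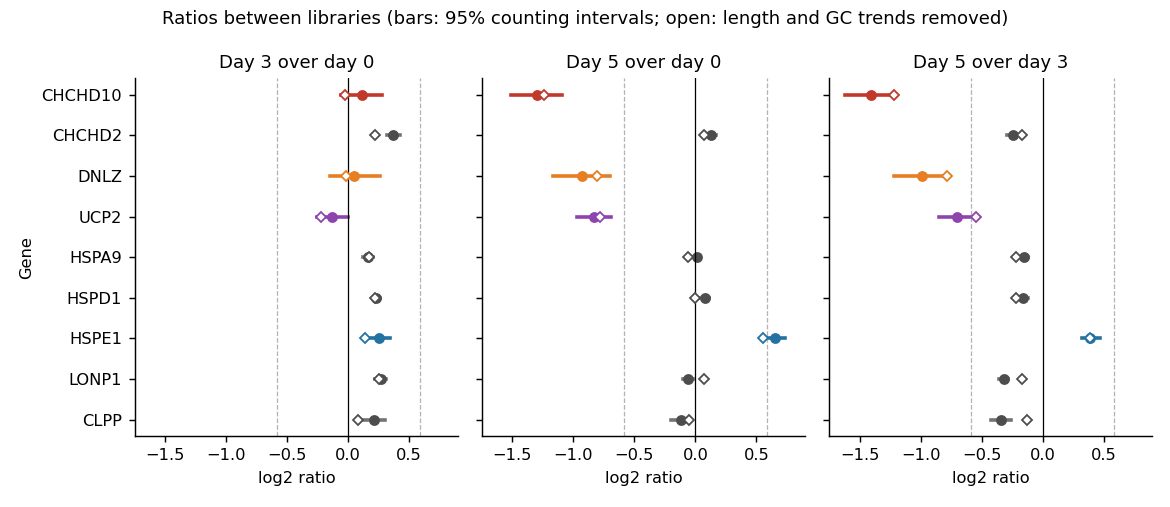
Log2 ratios between libraries (horizontal axis) for the 9 genes (vertical axis) in the 3 comparisons; filled points are ratios of normalised reads, bars their 95% counting intervals, open diamonds the ratios with length and GC trends removed, and dashed lines 1.5-fold. CHCHD10, DNLZ and UCP2 lie left of the dashed line in both comparisons with day 5, except that UCP2 is at -0.55 for day 5 over day 3 once the trends are removed; HSPE1 lies right of it for day 5 over day 0.

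The libraries also differed by GC content of the transcripts. For day 5 over day 3 the median log2 ratio was 0.18 in the eighth of genes with the lowest GC content and -0.18 in the eighth with the highest. Transcripts of CHCHD10 (67.1%) and DNLZ (66.7%) are rich in GC, those of CLPP (62.1%) and LONP1 (61.9%) less so, and those of HSPE1 (46.9%), HSPA9 (45.5%) and HSPD1 (44.8%) are poor in it. With smooth trends on length and GC content removed, the log2 ratio of day 5 over day 3 was -1.22 for CHCHD10, -0.78 for DNLZ, -0.55 for UCP2 and 0.39 for HSPE1. UCP2 was then short of 1.5-fold in that comparison. LONP1 and CLPP then had -0.17 and -0.13, and HSPA9 and HSPD1 -0.22 each, so the proteases no longer stood below these 2 chaperones. For day 5 over day 0, HSPE1 had 0.55 with the trends removed, under 1.5-fold.

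**Figure D3:**
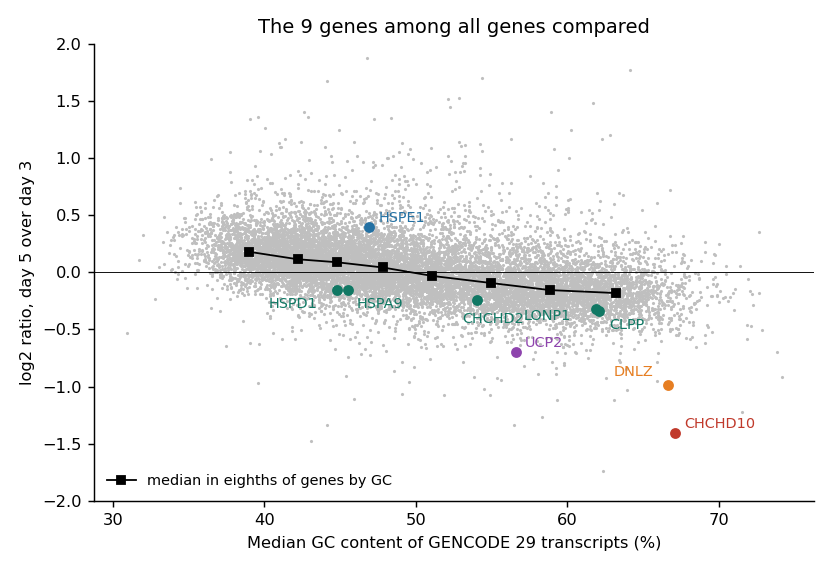
Log2 ratio of day 5 over day 3 (vertical axis) against the median GC content of each gene's transcripts in percent (horizontal axis) for 12487 genes (grey; 18 lie outside the plotted range) with medians in eighths of genes by GC content (black squares). CHCHD10, DNLZ and UCP2 lie below all of the black medians and HSPE1 lies above them. LONP1 (-0.32), CLPP (-0.34) and CHCHD2 (-0.24) also lie below the lowest median (-0.18), by less.

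The classes of read gave a further view of the genes with the larger ratios. For CHCHD10, exon reads numbered 538, 583 and 255 and reads across exon junctions 524, 559 and 236, with log2 ratios of -1.49 [-1.71 to -1.28] and -1.54 [-1.77 to -1.32] for day 5 over day 3. Its intron reads numbered 37, 30 and 29, with a log2 ratio of -0.34 [-1.13 to 0.44]. On this scale the intervals of exon and intron reads do not overlap. The fall was seen in exon reads and was not detectable in the few intron reads. Over 5666 genes that averaged 50 or more intron reads, the median log2 ratio of intron reads was 0.26 for day 5 over day 3, so intron reads were higher in general in the day 5 library. The gap between the exon and intron intervals of CHCHD10 is narrower than that shift. Whether the 2 classes differ beyond the shift was not tested, and the intervals alone do not settle it. The counting is not stated to use strand, and CHCHD10 overlaps MMP11 by 218 bases and C22orf15 by 28 bases on the other strand; MMP11 had 19, 12 and 8 reads and C22orf15 had 3, 0 and 3. UCP2 had 13, 13 and 16 intron reads, with a log2 ratio of 0.00 [-1.15 to 1.18] that overlaps that of its exon reads, -0.71 [-0.86 to -0.56]. DNLZ and HSPE1 had at most 8 intron reads in a library.

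**Figure D4:**
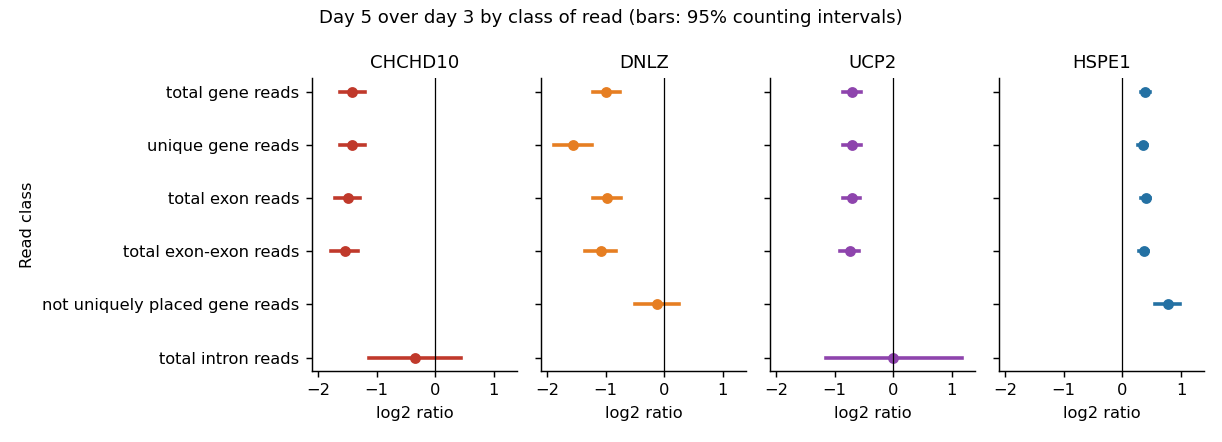
Log2 ratio of day 5 over day 3 (horizontal axis) by class of read (vertical axis) for CHCHD10, DNLZ, UCP2 and HSPE1; points are ratios and bars 95% counting intervals, and classes with fewer than 20 reads in the 2 libraries are left out. For CHCHD10 the intron interval (-1.13 to 0.44) lies beside the exon interval (-1.71 to -1.28), with a gap narrower than the general shift of intron reads (0.26). For DNLZ the reads that were not uniquely placed (-0.12) lie apart from the unique ones.

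Genes whose 2 steps (day 3 over day 0 and day 5 over day 3) were nearest to those of a member were sought among 9787 protein-coding genes that averaged 200 or more reads, by distance on the log2 scale over the 3 libraries. The nearest to CHCHD10 was DNLZ, at a distance of 0.422, then HES4 (0.488), HSPA1A (0.547) and EBPL (0.551). These distances are large because few genes had a ratio as low as that of CHCHD10. CHCHD10 and DNLZ were both chosen for lower reads at day 5 than at day 3, so nothing is read from their nearness. Of the DNLZ reads 67.3% were uniquely placed, so distances to it are uncertain. HES4, a transcriptional repressor of the Notch pathway, was nearest to DNLZ, at 0.109, with 286, 311 and 202 reads and a log2 ratio of -0.92 [-1.18 to -0.66] for day 5 over day 3. EBPL had 594, 585 and 394 reads and lay at 0.134 from DNLZ, followed by HSPA1A (0.251) and LYSMD2 (0.323). HSPA1A, a cytosolic HSP70, had 10.8% uniquely placed reads and is uncertain. The nearest to UCP2 were RMI2 (0.111), the intermediate filament gene NES (0.119), ZNF524 (0.172) and the receptor gene FGFRL1 (0.203). Likeness over 3 libraries is a description, and many unrelated genes can share such a pattern.

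The wider mitochondrial lists are described by counts and medians beside those of all genes. Of all 12593 genes, 52.0% were above day 0 at day 3. At day 5, 51.2% were above day 0 and 50.1% above day 3. Of 13 chaperone and co-chaperone genes, 10 were above their day 0 level at day 3, with a median log2 ratio of 0.14 against 0.01 over all genes. That median was 0.10 with length and GC trends removed and -0.00 in the authors' TPM. Past 1.5-fold were 0 of the 13, against 1.29% of all genes higher and 2.53% lower. At day 5 over day 0 the median was 0.08, and HSPE1 (higher) and DNLZ (lower) were the 2 that passed, where 1.76% and 1.28% of all genes did. Both were among the 9 genes chosen with their ratios known. Between day 3 and day 5 the median was -0.09, against 0.00 over all genes, and 0.01 in the authors' TPM. DNLZ alone passed in that step, where 0.961% of all genes were lower. HSCB, a J-protein of iron-sulfur cluster assembly, had 238, 264 and 421 reads and 0.38 [0.15 to 0.60] for day 5 over day 3. TRAP1, a mitochondrial HSP90, had -0.18, and GRPEL1, the exchange factor of HSPA9, had -0.14. GRPEL2 had 0.17, but only 25.9% of its reads were unique.

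Of 19 proteases and peptidases, 11 were above day 0 at day 3 (median 0.09) and 11 at day 5 (median 0.03). Of all genes 52.0% and 51.2% were. The day 3 median was -0.04 in the authors' TPM, and the median for day 5 over day 3 was -0.00. LONP1 and CLPP had the lowest ratios of that list in the last comparison, but with length and GC trends removed (-0.17 and -0.13) they stood above AFG3L2 (-0.37), IMMP2L (-0.33) and METAP1D (-0.31). The inner membrane peptidase subunit IMMP2L, with 46, 77 and 78 reads, was the only one past 1.5-fold, at day 3 over day 0 (0.75 [0.21 to 1.32]). Of all genes, 1.29% were higher past 1.5-fold in that comparison. In the step from day 3 to day 5, IMMP2L had -0.28 [-0.75 to 0.19] and its partner IMMP1L had 0.28 [-0.02 to 0.58]. The stress-activated protease OMA1 had 0.33 [0.03 to 0.64] with 48.7% unique reads, and AFG3L2, of the m-AAA protease, had -0.26 [-0.34 to -0.19].

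Of 22 CHCH-domain genes, 19 had more CPM at day 3 than at day 0, where 52.0% of all genes did. The list's median log2 ratio was 0.27, or 0.15 in the authors' TPM. Past 1.5-fold were 0 of the 22, against 1.29% of all genes higher and 2.53% lower. At day 5 over day 0 the median was 0.10, CMC4 and COA6 were higher past 1.5-fold and CHCHD10 was lower, where 1.76% of all genes were higher and 1.28% lower. COA6, a copper-handling assembly factor of cytochrome c oxidase, had 234, 309 and 482 reads, and CMC4, with 23.1% unique reads, had 57, 83 and 133. From day 3 to day 5, CHCHD10 alone of the 22 passed, where 0.961% of all genes were lower. The next lowest were COA4, at -0.41 [-0.53 to -0.29], and CHCHD5, at -0.33. The median of that list was -0.02. CHCHD10 stood at -1.41 in a list whose other genes lay between -0.41 and 0.38. It was chosen for its lower reads at day 5 than at day 3, so nothing is read from this contrast.

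UCP2 was set beside 9 other genes of the uncoupling protein and adenine nucleotide carrier families, of which 6 averaged 50 or more reads. The adenine nucleotide carriers SLC25A6 and SLC25A5 had log2 ratios of -0.43 [-0.47 to -0.39] and -0.22 [-0.25 to -0.19] for day 5 over day 3. With length and GC trends removed, these were -0.22 and -0.16. The uncoupling-like carriers SLC25A30 and SLC25A14 had 0.16 each without that removal, with intervals that reach below 0. UCP2 was the only one of the 7 measured genes past 1.5-fold in either comparison with day 5. Of all genes, 1.28% were lower at day 5 over day 0 and 0.961% at day 5 over day 3. With length and GC trends removed, UCP2 had -0.55 for day 5 over day 3, short of 1.5-fold. It was chosen with its ratios known, so nothing is read from its place in the list. The medians of the 7 were -0.01 at day 3 over day 0, 0.07 at day 5 over day 0 and -0.16 at day 5 over day 3.

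Of 26 import genes, 22 were above day 0 at day 3 (median 0.14) and 18 at day 5 (median 0.09). Of all genes 52.0% and 51.2% were. The day 3 median was 0.08 with length and GC trends removed and 0.02 in the authors' TPM. Past 1.5-fold were 0 of the 26 in any comparison, where 0.961% to 2.53% of all genes passed in each direction. TOMM40, the import channel, had 5816, 6105 and 5386 reads and -0.48 [-0.53 to -0.43] for day 5 over day 3, or -0.29 with the trends removed. The small TIM chaperones TIMM13 and TIMM10 had -0.40 and -0.38, and ROMO1 had 0.36 [0.24 to 0.47]. The median for day 5 over day 3 was -0.02.

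In the list of mitochondrial stress signalling, which holds ATF4, ATF5, DDIT3 and their targets, 17 of 18 genes were measured. The name is only that of the list. Whether its ratios reflect stress of mitochondria or of the endoplasmic reticulum was not tested. At day 3, 15 exceeded their day 0 level (median log2 ratio 0.38), and DDIT3, SESN2, CHAC1 and ASNS were higher past 1.5-fold. Of all genes, 52.0% exceeded day 0 and 1.29% were higher past 1.5-fold. The list's median was 0.27 with the trends removed and 0.25 in the authors' TPM. At day 5 the median over day 0 was 0.20 and 0 passed. The median of day 5 over day 3 was -0.16, with CHAC1, a glutathione-degrading enzyme, at -0.45 [-0.67 to -0.23], the proline enzyme PYCR1 at -0.44, the transcription factor CEBPB at -0.39 and ASNS, with 4.1% unique reads, at -0.36. That median was -0.08 with the trends removed and -0.04 in TPM, and CHAC1, PYCR1, CEBPB and ASNS had -0.25, -0.24, -0.18 and -0.44 with the trends removed.

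**Figure D5:**
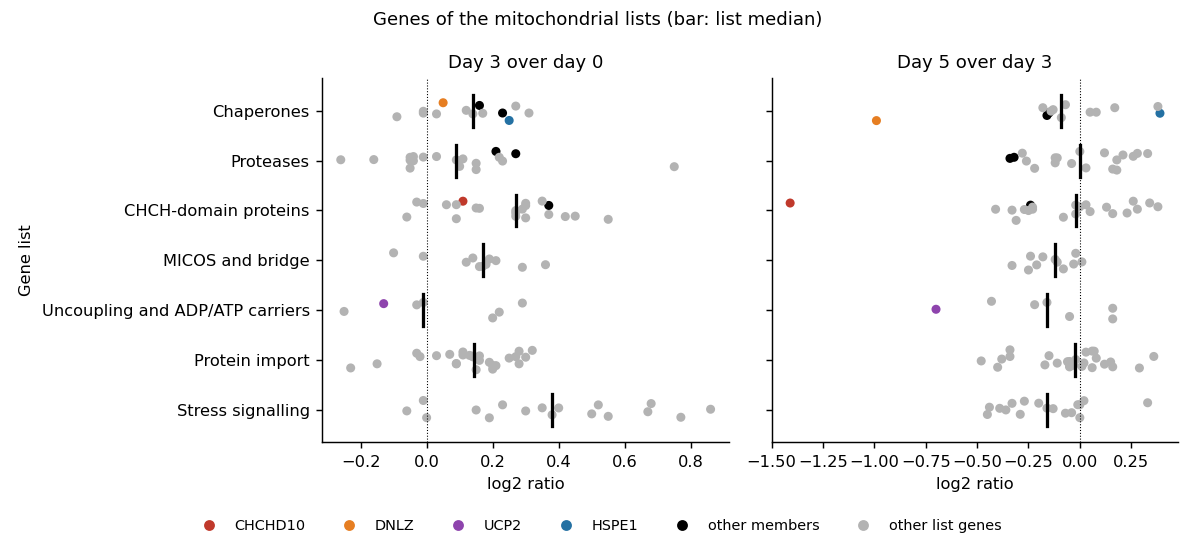
Log2 ratios (horizontal axis) of the measured genes of 7 gene lists (vertical axis) for day 3 over day 0 and day 5 over day 3. Bars are at list medians. A gene on 2 lists is drawn in each, and points are spread vertically for sight. CHCHD10 (-1.41), DNLZ (-0.99) and UCP2 (-0.70), chosen with these ratios known, lie apart to the left of their lists in the right-hand panel. The stress signalling list has the highest median, 0.38, in the left-hand panel.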

How the data were processed

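RNA-seq was analysed from 3 libraries, 1 for each time on doxycycline (0, 3 or 5 days). The RNA was isolated with RNAiso Plus and made into libraries with a SMARTer mRNA-seq kit, per the labels' protocols. Per the file headers, the deposited tables hold read counts per gene (total, unique, exon, exon-exon and intron reads), exon lengths in bases and the authors' TPM. Aligner, counter and use of strand are not named in the labels, the file headers or the notes used here. The submitters' processing notes name the mouse build mm10, but all 58243 identifiers are human Ensembl identifiers; 57980 are in GENCODE 29 and for 97.6% of these start and end match GRCh38, the build used here. For HSPA9 and CLPP the ends differ, and coordinates are those of the files. A table of the whole series, with 3 sample columns, was not used.

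Total gene reads were scaled with TMM factors (edgeR 4.0.16, R 4.3.3) to normalised CPM. Log2 ratios used a prior count of 0.5, with exact conditional 95% intervals that cover counting error only. The labels mention no molecular identifiers, so duplicate reads may be counted and the intervals may be too narrow. Other tools were statsmodels 0.14.6, scipy 1.17.1, matplotlib 3.10.9, pandas 2.3.3 and numpy 2.4.6 under Python 3.11.15. With 1 library per group there is no test of the treatment. A gene was called higher or lower at 1.5-fold where the interval left out 1, if it averaged 50 or more reads. The alternatives were library totals, DESeq2 1.42.0 size factors, TPM with 0.5 added, unique, exon or intron reads, a prior count of 5, other read minimums (10 or 200), 2-fold, an interval excluding 1.5-fold, and removal of lowess trends (span 0.3, 3 rounds) on exon length and on the median GC content of each gene's GENCODE 29 transcripts. The steps were tested on simulated data.

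The 9 genes, the 7 gene lists and the marker lists were chosen with earlier results of these data known. Named besides the 9 genes and SYVN1 are up to 4 genes per list with the largest day 5 over day 3 difference, and the 4 protein-coding genes (mean of at least 200 reads) nearest in pattern to each of CHCHD10, DNLZ and UCP2. Other genes are named where they passed 1.5-fold or overlap a member, and were chosen after their values were seen.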

Additional observations from a re-analysis of the deposited data

How the results depend on the processing

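Each ratio rests on 1 library per time, so the spread between cultures is unknown, and intervals cover counting error only. Unique reads gave a log2 ratio of -1.53 for DNLZ at day 5 over day 3, below the interval from all reads; the reads it leaves out are those not uniquely placed, which numbered 112 and 127 at day 3 and day 5. The ratios of CHCHD10 for day 5 over day 3 ranged from -1.46 to -1.22 and those of UCP2 for day 5 over day 0 from -0.85 to -0.78 across the settings. The count of genes at least 1.5-fold higher at day 5 over day 0 went from 1 (HSPE1) to 0 with length and GC trends removed, at 2-fold, and with an interval excluding 1.5-fold. The trends also took UCP2 under 1.5-fold at day 5 over day 3 (-0.55), which left 2 lower genes of 3. At 2-fold the count of lower genes went from 3 to 1 (CHCHD10) in both comparisons with day 5. Of 198 member ratios under alternatives, 153 stayed within the counting interval of the main value, and 0 ratios past 1.5-fold changed sign. The sign of the small day 3 ratios of CHCHD10 (-0.03 to 0.11) and DNLZ (-0.08 to 0.06) depended on the setting, as did those of HSPA9 (-0.06 to 0.02), HSPD1 (-0.00 to 0.08) and LONP1 (-0.07 to 0.07) at day 5 over day 0. Of 189 list medians, 182 stayed within the median of their genes' intervals. These ranges leave out intron reads, which could be used for HSPA9, HSPD1 and LONP1 only and put 8 of their 9 ratios outside the main counting interval. They gave -0.10 [-0.56 to 0.35], -0.17 [-0.38 to 0.05] and -0.12 [-0.37 to 0.13] at day 3 over day 0, where all reads gave 0.16, 0.23 and 0.27. They gave 0.12, 0.08 and -0.17 at day 5 over day 0, and 0.22, 0.24 and -0.05 at day 5 over day 3. Over 5666 genes the median log2 ratio of intron reads was -0.29, -0.03 and 0.26 in these comparisons. The day 3 values lay above that median and their intervals include 0, so no change of sign is read from them. In TPM the day 3 ratios of HSPA9, HSPD1 and LONP1 were 0.03, 0.11 and 0.14. No paired analysis was possible because each time has 1 library.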

Other observations

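MICOS, the complex that shapes the folds of the inner membrane, was measured with its bridge to the outer membrane in 11 genes. At day 3, 9 of them were above day 0, where 52.0% of all genes were. The median log2 ratio was 0.17, or 0.07 in the authors' TPM, and at day 5 the median over day 0 was 0.01. For day 5 over day 3, 1 of 11 was above 0, against 50.1% of all genes. Past 1.5-fold were 0, against 2.29% of all genes higher and 0.961% lower. The median was -0.12, against 0.00 over all genes. That median was -0.04 with library totals in place of TMM and -0.02 in the authors' TPM. The lowest were MINOS1 (MICOS10) at -0.33 [-0.43 to -0.24], with 60.9% unique reads, and CHCHD3 at -0.25 [-0.37 to -0.13]. MTX1, at -0.24 with 52.6% unique reads, was -0.06 with length and GC trends removed, and DNAJC11 had -0.21. CLPP stood at 60.9%, 58.3% and 58.2% of LONP1 in TPM at day 0, day 3 and day 5, so the proportion of the 2 matrix proteases differed less between libraries than that of HSPE1 to HSPD1.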
